A study of Mus musculus with 22 samples.

Results

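The nuclear genes for respiratory complexes II to V were described in single mouse astrocytes whose calcium response to ethanol (EtOH) had been recorded. Of the 23453 gene symbols in the count table, 49 were taken by their symbols alone: 4 for complex II (Sdha to Sdhd), 9 for complex III (Cyc1 and the Uqcr genes), Cycs for cytochrome c, 18 for complex IV (Cox4 to Cox8) and 17 with the prefix of the ATP synthase, complex V (Atp5). No measured value entered this choice. Of the 49 genes, 40 had a read in all 22 cells and 44 had a read in at least 5 cells, which is the filter used for every comparison between response types.

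All cells were C57BL/6 astrocytes cultured from the cortex of newborn pups, and no genetic change is named for any of them. The cultures had been shaken and treated with cytosine arabinoside to deplete other cell types, the serum had been withdrawn, and the cells had been loaded with the calcium dye Fluo-4 before EtOH was applied and the chosen cells were drawn into a pipet. The 6 S-type cells had a sustained and the 6 T-type cells a transient calcium signal, the 5 M-type cells showed a mixture of both, and the 5 NR cells gave no response. NR cells were therefore exposed to EtOH as well, and no unexposed cell is among the 22. The study worked with 1 chosen EtOH dose and collected cells at more than 1 time after the exposure. Which time, pup and culture belong to which cell was not used here because the labels do not give them, and cells of a type may share a pup or a dish. With no named pup or culture behind the cells, a response type was a single sample, and the differences between types are given without a test.

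Complexes II, III and IV pass electrons from succinate and ubiquinol to oxygen in the inner mitochondrial membrane. Complex II (succinate dehydrogenase) is also an enzyme of the citric acid cycle. Complex III hands electrons to cytochrome c, a small soluble carrier, and complex IV (cytochrome c oxidase) passes them to oxygen, while complexes III and IV pump protons. The ATP synthase lets protons flow back through a ring of c subunits and makes ATP in its catalytic head. Astrocytes are known for active glycolysis, yet they also hold mitochondria that make ATP and take up calcium. The subunits that mitochondrial DNA encodes, such as cytochrome b and the large subunits of complex IV, have no row in the table.

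The depth was high and uneven. Total counts ran from 2937786 to 22131076 per cell. T-type cell 2 and T-type cell 3 stood apart before any gene was compared: their size factors, the scale by which each cell's counts were divided, were 0.276 and 0.183, against 0.548 to 2.31 in the other 20 cells. In T-type cell 2 the 100 genes with the most reads took 47.1% of all reads, against 20.3% to 33.1% in the other cells. Astrocyte markers took 0.481% to 2.04% of the reads of a cell, and all 11 had reads in every type. Markers of microglia took at most 0.00443%, of endothelium 0.0200%, of neurons 0.205%, of the oligodendrocyte lineage 0.333% and of mural cells and fibroblasts 0.741%, and 1 marker of each of the last 4 lists (Cldn5, Slc17a7, Sox10 and Rgs5) had no read in any cell while the others had some. The median share of the mural and fibroblast list was 0.125% in T-type, 0.0363% in NR, 0.120% in S-type and 0.143% in M-type, and its part in the results was not tested.

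Levels between genes can be compared only per length of transcript, and on that scale 41 of the 44 genes formed a set with reads in at least 21 cells while a few isoforms were nearly silent. A gene's level was the average, over the cells of one response type, of its normalized counts (counts after division by the size factor), and the level per kilobase divides this by the median length of the gene's coding transcripts. Averaged over the 4 types, Atp5g3, which encodes subunit c of the proton-driven ring, was the highest of all at 82836 normalized counts per kilobase. Cox6c, a small nuclear subunit of complex IV, followed at 43287 per kilobase, and Uqcrb, a subunit of complex III that binds ubiquinone, was the highest of its complex at 23068 per kilobase. Within complex II, Sdha, the flavoprotein that oxidizes succinate, stood highest at 6205 per kilobase and Sdhb, the iron-sulfur subunit, lowest at 1872. Uqcrc1, a core protein of complex III, was at 209 per kilobase, so that subunits of that complex differed by 110-fold on this scale although the assembled complex holds them in equal numbers. Cycs was at 889 per kilobase. The order of the 44 genes was much the same in each type, with Spearman's rho between types from 0.89 (T-type and NR) to 0.98 (S-type and M-type) across the genes, which are not independent replicates. Amplification primed at the 3′ end of the transcript makes the scale per length approximate.

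**Figure D1:**
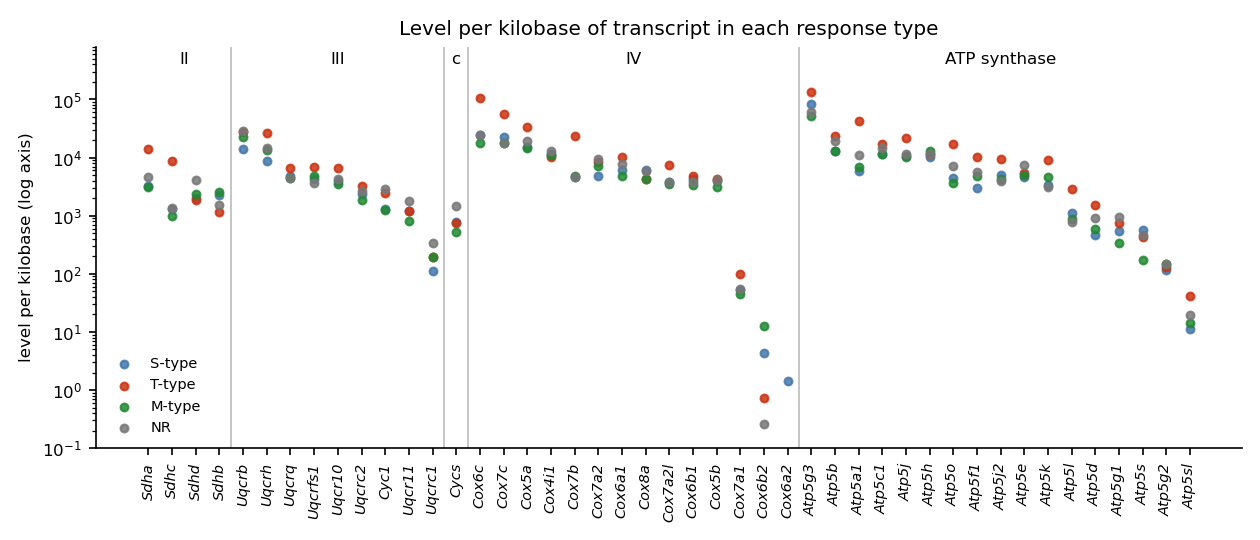
Level per kilobase of transcript (normalized counts per kilobase, log axis) of the genes with more than 3 reads in all, ordered within each complex. Each point is 1 response type and levels of 0 are not drawn; Atp5g3, Cox6c and Uqcrb lead their complexes, while Cox6a2, Cox6b2, Atp5sl and Cox7a1 have the lowest levels.

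Where a subunit has tissue-specific isoforms, the astrocytes used the common one. Cox4i1 was at 11516 normalized counts per kilobase, while its partner Cox4i2, known from lung, had no read in any cell. Cox8b, known from heart and skeletal muscle, and Cox8c, known from testis, had none either. With 354918409 reads in all, a count of 0 allows up to 3 reads, or 0.00845 CPM (reads scaled to library size), and this limit covers counting error only. The muscle isoform Cox6a2 had reads in 1 S-type cell and the testis isoform Cox7b2 in 1 T-type cell. Cox6b2, known from testis, had 79 reads spread over 9 cells, and it made up 0.113% of the Cox6b pair per kilobase. Cox7a1, known from muscle, had 900 reads in 15 cells and made up 0.523% of its family per kilobase, beside 61.5% for Cox7a2 and 38.0% for Cox7a2l, which is known as an organizer of respiratory supercomplexes. In NR, 98.5% of the normalized counts of Cox7a1 came from NR cell 2, at 120, whereas 3 of the 5 NR cells had no read. Of the 3 genes for the same subunit c, Atp5g3 held 99.1% of the level per kilobase, Atp5g1 0.774% and Atp5g2 0.163%. The annotated coding transcripts of Atp5g1 run from 596 to 4715 bases, so its share depends on which of them the cells made.

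Together the 49 genes took overlapping shares of the reads in the 4 types. In S-type cells the share lay between 1.68% (cell 2) and 3.24% (cell 3), with a median of 2.12%. T-type cells ran from 2.27% (cell 3) to 4.02% (cell 2), with a median of 2.79%. In M-type the shares were 1.88%, 2.29%, 1.75%, 2.22% and 2.79% for cells 1 to 5. In NR they were 1.21%, 2.94%, 2.15%, 3.42% and 3.09%. All 4 ranges overlapped. NR held the highest median, at 2.94%, and also the cell with the lowest share. Counting error was small beside the spread between cells: the exact 95% binomial interval was 2.25% to 2.28% in T-type cell 3, the shallowest library. Such intervals cover counting error only, because the libraries were amplified with no molecular identifiers and several reads can stem from 1 molecule. When the reads of a type were pooled instead, the order was 3.00% in T-type, 2.55% in NR, 2.26% in S-type and 2.19% in M-type.

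**Figure D2:**
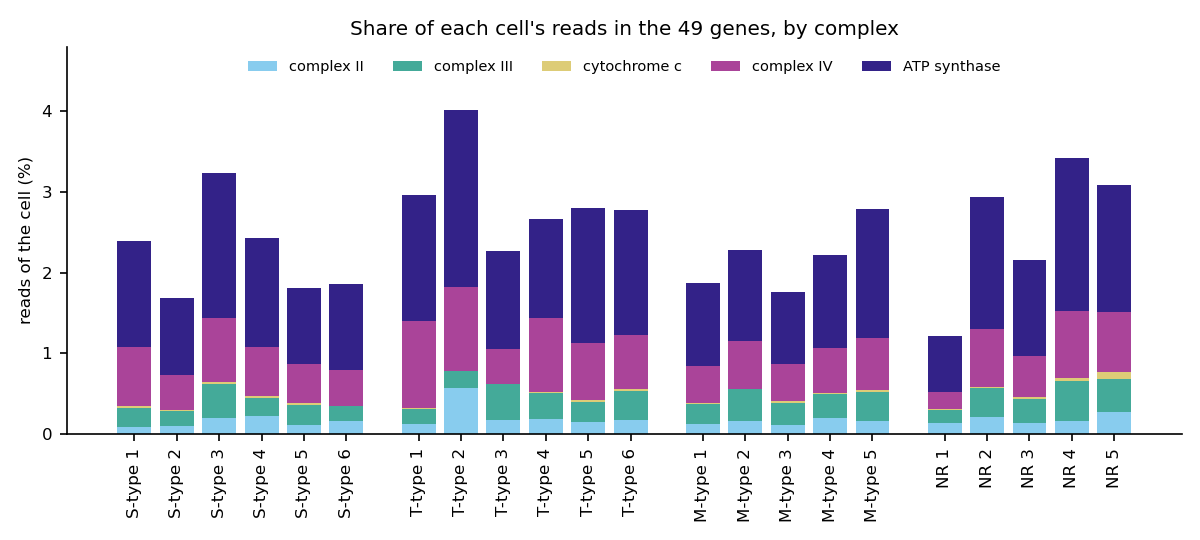
Share of each cell's reads (percent) in the 49 genes, stacked by complex, with 1 bar per cell. T-type cell 2 has the highest bar at 4.02% and NR cell 1 the lowest at 1.21%, and the ranges of the 4 types overlap.

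The ATP synthase held the largest part of these reads in every cell, with medians of 1.56% of all reads in T-type, 1.59% in NR, 1.19% in S-type and 1.13% in M-type. Complex IV followed, with medians of 0.813%, 0.724%, 0.549% and 0.556% in the same order. Complex II, the smallest complex, took 0.0892% to 0.270% in the other cells and 0.562% in T-type cell 2. Cytochrome c took 0.00474% to 0.0357% in the other cells and 0.0849% in NR cell 5.

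Ratios of type levels placed the genes higher in T-type and slightly lower in S-type and M-type relative to NR, without any gene in which the cells of both types were separated. The median log2 ratio over the 44 genes was 0.78 in T-type versus S-type and 0.60 in T-type versus NR. It was -0.18 in S-type versus NR and -0.35 in M-type versus NR. Over all 12719 genes that passed the filter the same medians were -0.07, -0.05, 0.03 and -0.20. T-type exceeded S-type in 37 of the 44 genes and NR in 29, whereas S-type exceeded NR in 12 and M-type exceeded NR in 10. These contrasts share cells and are not independent of each other.

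A level at least 2-fold higher was reached by 15 of the 44 genes in T-type versus S-type, beside 26.0% of all genes. The study used this fold together with a limit on the false discovery rate, which was not applied here. In the same contrast 1 gene, the sparsely read Cox6b2, was at least 2-fold lower, beside 32.2%. In T-type versus NR, 13 genes were at least 2-fold higher, beside 28.6% of all genes, and Sdhd was lower, beside 32.4%. Cox6b2 was among the 13 with 3 reads against 1. In S-type versus NR there were 1 higher (25.1% of all genes) and 4 lower (22.4%). M-type versus NR had 1 higher (19.8%) and 5 lower (28.1%). In the T-type contrasts the higher genes made up 34.1% and 29.5% of the 44, beside the 26.0% and 28.6% of all genes, and the lower ones 2.27% in each. Genes with few reads reach 2-fold easily. Among the 2843 genes with a mean level of at least 1000, 31.6% were at least 2-fold higher and 11.5% lower in T-type versus S-type, against 12 and 0 of the 35 members at that level. In T-type versus NR they were 34.7% and 12.2% of these genes, against 10 and 1 of the 35 members, or 28.6% and 2.86%. On the same footing the median log2 ratio was 0.48 in T-type versus S-type and 0.44 in T-type versus NR for all these genes, and 0.77 and 0.56 for the 35 members. No member had its cells apart, with every cell of one type above every cell of the other, in any of the 4 contrasts; the shares of all genes were 0.771%, 0.991%, 0.409% and 0.598%. The scaling bears on these counts: with the mean CPM in place of normalized counts, all genes moved to a median of -0.44 in T-type versus S-type and -0.45 in T-type versus NR, and the members to 0.28 and 0.06. Relative to all genes the members then lay 0.72 and 0.50 higher, against 0.85 and 0.65 with size factors. On that scale 16.7% of all genes were at least 2-fold higher and 37.8% lower in T-type versus S-type, and 19.3% and 37.9% in T-type versus NR. Of the 44 members, 6 were higher and 3 lower in T-type versus S-type, and 5 and 3 in T-type versus NR. The members' shares were thus below those of all genes in both directions.

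**Figure D3:**
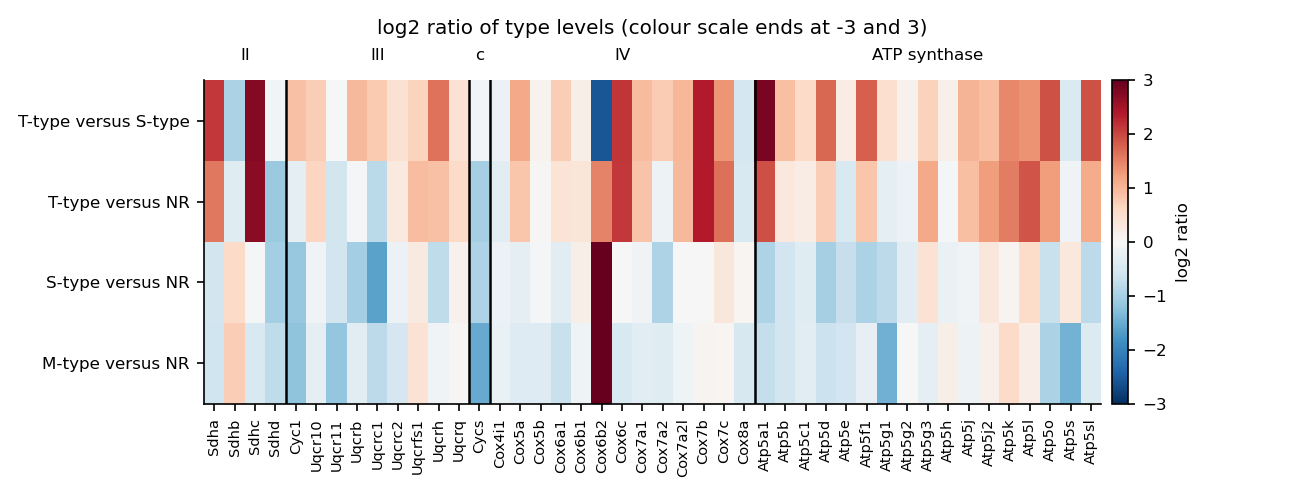
log2 ratio of type levels for the 44 genes that passed the filter (columns, grouped as complex II, complex III, cytochrome c, complex IV and ATP synthase) in the 4 contrasts (rows), with colours that end at -3 and 3. T-type versus S-type is red in 37 genes, while most fields of S-type and M-type versus NR are pale or blue, and the dark fields of Cox6b2 rest on 79 reads in all.

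The 4 subunits of complex II differed from each other, with 2 of them at least 2-fold higher in T-type than in S-type and the other two lower. Sdhc, which anchors the complex in the membrane, was at 17650 normalized counts in T-type, 2629 in S-type, 1964 in M-type and 2688 in NR. Its T-type cells read 21693, 58943, 709, 14717, 6512 and 3327 for cells 1 to 6. S-type cells lay between 1506 and 4147 with a median of 2491, M-type cells read 3242, 652, 1240, 2491 and 2194, and NR cells 2326, 2892, 1407, 3265 and 3551. Thus 4 of the 6 T-type cells exceeded every other cell, and T-type cell 3 was below all S-type and NR cells. The log2 ratio was 2.75 in T-type versus S-type (95% counting interval 2.72 to 2.77) and 2.71 in T-type versus NR (2.69 to 2.74). Without T-type cell 2 these ratios were 1.84 and 1.80, and with the median over cells in place of the mean 2.09 and 1.88. The study names Sdhc for a difference between types found in these same cells, so its values here are no independent evidence.

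Sdha followed a single cell. Its T-type level of 40339 contained 195362 normalized counts from cell 2, which was 80.7% of the sum, while the other T-type cells read 2712, 22914, 3617, 8170 and 9256. S-type cells lay between 2018 and 18148, M-type cells between 6321 and 13292 and NR cells between 8971 and 25254. The log2 ratio of T-type was 2.12 versus S-type and 1.58 versus NR. Without cell 2 it was 0.01 and -0.53, so the remaining cells gave almost no difference versus S-type and the opposite direction versus NR. Sdhb and the second membrane anchor, Sdhd, did not go with Sdhc. Sdhb had a log2 ratio of -0.96 in T-type versus S-type, but S-type cell 2 at 9936 held 63.8% of the S-type sum and the other S-type cells lay between 1021 and 1445. In Sdhd the T-type level of 2310 was at a log2 ratio of -1.11 versus NR, where NR cell 5 at 12257 held 49.1% of the sum, and without that cell the ratio was -0.46. The median log2 ratio of the 4 genes was 1.02 in T-type versus S-type and 0.60 in T-type versus NR, and without T-type cell 2 it was 0.10 and -0.50. Without T-type cells 2 and 3 the T-type versus S-type median was -0.23.

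Complex III differed little between T-type and NR. All 9 genes were higher in T-type than in S-type, with a median log2 ratio of 0.74, yet only Uqcrh, the acidic hinge protein beside cytochrome c1, reached 2-fold. With the mean CPM, Uqcr11 (-0.31) and Uqcrfs1 (-0.14) were lower and the other genes higher. With the median over cells, Cyc1 (-0.33) and Uqcrfs1 (-0.47) were lower and the others higher. Versus NR, with size factors again, the median log2 ratio was 0.28 with 5 of 9 genes higher, and -0.00 without T-type cell 2. Uqcrh stood at a T-type level of 12770 and a log2 ratio of 1.63 versus S-type. T-type cell 2 read 47084 and the others between 2868 and 9230, which overlapped the S-type cells at 2499 to 5431. Without cell 2 the ratio was 0.52. Uqcrfs1, the Rieske iron-sulfur protein, had the largest ratio of the complex in T-type versus NR at 0.92, and it rested on T-type cells 2 and 3 at 25031 and 19800, since the other T-type cells read 1333 to 3905 and the NR cells 4214, 5189, 4672, 4283 and 6129. Uqcrb, the most abundant subunit per length, was at 14665 in T-type, 7426 in S-type, 12177 in M-type and 15098 in NR. Its T-type and NR ratio was -0.04, and S-type was lower than NR by a log2 ratio of -1.02.

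In S-type versus NR, 7 of the 9 complex III genes were lower, with a median log2 ratio of -0.55, and 3 of them, Uqcrb, Uqcrc1 and Cyc1, were at least 2-fold lower, beside 22.4% of all genes. Uqcrc1 was at 184 normalized counts in S-type and 559 in NR, a log2 ratio of -1.60 (-1.68 to -1.51). The S-type cells ran from 9.77 to 448 with a median of 161.6, and the NR cells read 132, 429, 306, 1069 and 858, so the types overlapped. Cyc1, the cytochrome c1 that reduces cytochrome c, was at 2003 in S-type, 1914 in M-type and 4417 in NR, with log2 ratios of -1.14 and -1.21. NR cell 5 at 10105 held 45.8% of the NR sum, and without it the ratios were -0.58 and -0.65. In T-type, Cyc1 rested on cell 3 at 12054, or 54.6% of the sum, while cell 2 read 21.8. Uqcr11, a small subunit, was at a log2 ratio of -1.16 in M-type versus NR.

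Cytochrome c, encoded by Cycs, was not higher in T-type than in S-type or NR. Its levels were 2338 in T-type, 2455 in S-type, 1640 in M-type and 4676 in NR. The NR cells read 1441, 1607, 2397, 4017 and 13916, and cell 5 alone gave 59.5% of the NR sum. T-type cells lay between 1315 and 4005 with a median of 2134, S-type cells between 948 and 3482 with a median of 2646, and M-type cells read 1381, 1185, 2231, 1264 and 2138. The 3 responding types thus overlapped the first 4 NR cells. The log2 ratio versus NR was -1.0 for T-type, -0.93 for S-type and -1.51 for M-type, and without NR cell 5 it was -0.02, 0.05 and -0.53. NR cell 5 was also the highest NR cell in 24 of the 44 genes. Its size factor of 1.08 was the smallest of the NR cells, and the part of scaling in these values was not tested.

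In complex IV, 10 of the 13 subunits that passed the filter were higher in T-type than in S-type. At least 2-fold higher were 4 of them, Cox5a, Cox6c, Cox7b and Cox7c (30.8%, beside 26.0% of all genes). Versus NR there were also 4, with the sparsely read Cox6b2 in place of Cox5a (30.8%, beside 28.6%). Cox7b, a small subunit encoded on the X chromosome, had the largest log2 ratio of the complex among well-read genes, 2.39 (2.37 to 2.41) in T-type versus S-type and 2.38 (2.37 to 2.40) in T-type versus NR. Its levels were 24006 in T-type, 4588 in S-type, 4834 in M-type and 4597 in NR. The T-type cells read 13779, 83383, 6453, 25582, 9721 and 5122. S-type cells lay between 3121 and 7471 with a median of 3577, M-type cells read 4923, 5616, 4444, 4769 and 4419, and NR cells 2142, 3931, 5822, 4751 and 6342. All T-type cells but cell 6 exceeded every M-type and NR cell, and cells 1, 2, 4 and 5 exceeded every S-type cell. Without T-type cell 2 the ratio was 1.40 in both contrasts, and with the median over cells 1.72 and 1.31.

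Cox6c gave a like picture with more weight on a pair of cells. Its level was 64543 in T-type, 14663 in S-type, 10849 in M-type and 14872 in NR, and the log2 ratio was 2.14 in T-type versus S-type and 2.12 in T-type versus NR. T-type cells 1 and 2 read 96906 and 225194, while cells 3 to 6 read 21873, 17212, 15812 and 10263, within the reach of the S-type cells at 5255 to 25626. NR cells read 4030, 16808, 9215, 15412 and 28894. Without T-type cell 2 the ratios were 1.14 and 1.12, and with the median over cells 0.56 and 0.34. The study names both Cox6c and Cox7b for differences in these same cells, which makes their ratios a description. Cox5a and Cox7c were carried by different cells. Cox5a, which forms part of the matrix face of the complex, and Cox7c, a small membrane subunit, were at log2 ratios of 1.13 and 1.32 in T-type versus S-type, and Cox7c was at 1.66 in T-type versus NR. Without T-type cell 2, which held 43.99% of the T-type sum of Cox7c, Cox7c was at 0.75 and 1.09 and Cox5a at 1.13 versus S-type. Cox5a was highest in T-type cell 1, at 51450 against 8476 to 22228 in the other T-type cells. Its ratio versus S-type was 0.56 with the mean CPM and 1.06 with the median over cells.

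The other subunits of complex IV except the sparsely read Cox6b2 stayed below 2-fold in the T-type contrasts. Cox4i1, which carries a regulatory site for ATP, was at 7722 in T-type, 8693 in S-type, 8535 in M-type and 9829 in NR, and its T-type ratio was -0.17 versus S-type and -0.35 versus NR. Cox7a2l was at 0.99 and 0.97, of which 56.2% of the T-type sum was from cell 2, and without that cell it was at 0.06 and 0.05. Cox8a was lower in T-type than in S-type by a log2 ratio of -0.52, and S-type cell 4 held 51.4% of its S-type sum. For Cox7a2 the largest ratio was -0.94 in S-type versus NR, and it was -0.18 without NR cell 5, which read 16180 where the other NR cells read 2072 to 7314. Cox6a1 was at a log2 ratio of -0.67 in M-type versus NR and 0.01 without NR cell 5. For the whole complex the median log2 ratio was 0.77 in T-type versus S-type, 0.83 in T-type versus NR, -0.02 in S-type versus NR and -0.31 in M-type versus NR, and without T-type cell 2 the first 2 of these were 0.36 and 0.15. Cox6b2 passed the filter with a handful of reads: M-type was at 5.61, S-type at 1.91, T-type at 0.320 and NR at 0.113 normalized counts, the last of them from 1 read. Its counting intervals were wide, with a log2 ratio of 4.07 in S-type versus NR (1.36 to 9.48) and 5.63 in M-type versus NR (3.10 to 10.96). No ratio is read between T-type and NR, which had 3 reads and 1 read.

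**Figure D4:**
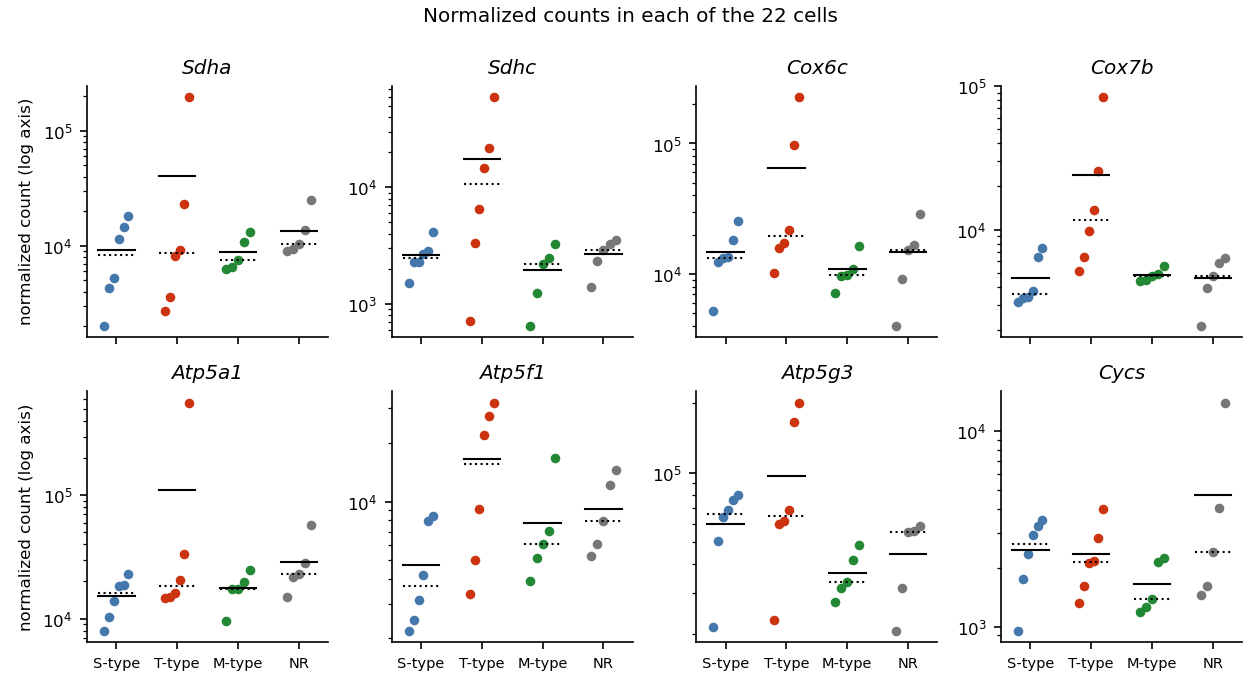
Normalized counts (log axis) of 8 genes in each of the 22 cells, with a solid line at the mean and a dotted line at the median of each response type. Solid and dotted lines part most in T-type for Sdha, Cox6c and Atp5a1, where T-type cell 2 lies far above the rest, and in NR for Cycs, where NR cell 5 does; in Sdhc and Cox7b several T-type cells lie high.

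The ATP synthase had the largest number of 2-fold genes, 8 of 17 in T-type versus S-type (26.0% of all genes) and 7 of 17 in T-type versus NR (28.6%). Complex II had the larger share, with 2 of 4 in both contrasts. The ATP synthase genes were 5 and 4 of 17 without T-type cell 2 (22.8% and 25.8% of all genes), and different cells carried the different subunits. Atp5a1, the alpha subunit of the catalytic head, was at 110539 in T-type, 15318 in S-type, 17780 in M-type and 29029 in NR, with log2 ratios of 2.85 and 1.93. T-type cell 2 read 563648 and supplied 84.98% of the T-type sum. The other T-type cells read 33442, 14858, 16071, 20478 and 14736, S-type cells 7928 to 22951 with a median of 16062, and NR cells 14909, 23078, 21747, 28470 and 56942. Without cell 2 the ratios were 0.38 and -0.54. Its partner in the head, Atp5b, the catalytic beta subunit, was at 45740 in T-type and 24657 in S-type, a log2 ratio of 0.89 that was 0.96 without cell 2. Alpha and beta stand in equal numbers in the assembled enzyme, but their T-type ratios differed with T-type cell 2, where alpha was higher, and without it, where beta was.

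Atp5f1, subunit b of the peripheral stalk, was spread over more cells. Its levels were 16459 in T-type, 4720 in S-type, 7777 in M-type and 9179 in NR. T-type cells 1, 2 and 3 read 31985, 27443 and 21829 and cells 4, 5 and 6 read 3351, 9141 and 5005. S-type cells lay between 2178 and 8390 with a median of 3679, M-type cells read 3916, 16722, 6087, 5122 and 7039, and NR cells 7937, 5284, 6077, 12170 and 14426. The log2 ratio of 1.80 in T-type versus S-type was 1.60 without T-type cell 2 and 2.07 with the median over cells. Versus NR it was 0.84, below 2-fold. The study names Atp5f1 too. Atp5d, the delta subunit of the central stalk, was at 1442 in T-type and 435 in S-type, a log2 ratio of 1.73 that was 1.52 without T-type cell 2, and its T-type cells read 2521, 2437, 1009, 626, 1096 and 965 against 263 to 817 in S-type. All T-type cells but cell 4 exceeded every S-type cell. Versus NR the ratio of Atp5d was 0.74, since NR cell 5 read 2404 and the other NR cells 81.3 to 864.

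Among the other stalk and membrane subunits, Atp5o, the protein that joins the stalk to the head, was at a log2 ratio of 1.92 in T-type versus S-type and at 0.90 without T-type cell 2, which held 58.8% of the T-type sum. Atp5k and Atp5l, subunits e and g, which are known for pairing ATP synthases into dimers, were at 1.45 and 1.35 versus S-type and at 1.54 and 1.89 versus NR. Without T-type cell 2 the ratios versus NR were 1.75 and 2.03. T-type cell 4, at 8389, held 47.8% of the T-type sum of Atp5k, and T-type cell 1 held 51.2% of that of Atp5l. With the median over cells Atp5k was at 0.75 versus S-type and 0.98 versus NR, and Atp5l at 0.67 and 1.13. For Atp5g3, the most abundant of all, T-type was at 96906, S-type at 60196, M-type at 36615 and NR at 44352, and the T-type cells read 166634, 201364, 68770, 22966, 60104 and 61601. Its log2 ratio of 1.13 in T-type versus NR was 0.78 without cell 2. Atp5g1, another gene for the same subunit, was lowest in M-type, with cells at 317, 1065, 767, 734 and 1714 against 878, 1690, 2021, 2263 and 5715 in NR, a log2 ratio of -1.45 that was -0.90 without NR cell 5. The genes Atp5sl and Atp5s carry the prefix but are known for a family of assembly factors rather than as subunits, and Atp5sl was read in only 15 cells. Atp5sl is nevertheless counted among the 2-fold higher genes of both T-type contrasts, with and without T-type cell 2. T-type cell 1 read 386, and the other T-type cells at most 85.7. With the median over cells its log2 ratio was -0.17 versus S-type and -3.21 versus NR.

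The median log2 ratio of the 17 genes was 0.91 in T-type versus S-type, 0.84 in T-type versus NR, -0.36 in S-type versus NR and -0.34 in M-type versus NR. The first pair was 0.51 and 0.31 without T-type cell 2. Without NR cell 5 the last pair was -0.04 and 0.01, and T-type versus NR was 1.23 with 11 of 17 genes at least 2-fold higher, beside 29.4% of all genes.

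Across the 44 genes, single cells carried much of the type levels. A majority of the T-type sum came from 1 cell in 13 genes, in 8 of them T-type cell 2, which was the highest T-type cell in 17 genes. The part of its small size factor and of its concentrated reads in these values was not tested. A majority came from 1 cell in 4 genes in S-type, 4 in M-type and 8 in NR. Leaving out T-type cell 2 brought the 15 genes of T-type versus S-type to 11, of which 9 were among the 15. The 13 of T-type versus NR came to 10, of which 9 were among the 13. Of all genes, 22.8% and 25.8% were at least 2-fold higher in these contrasts without that cell. The 11 of 44 lay near the first share and the 10 of 44 below the second. The medians without that cell were 0.47 and 0.15, beside -0.11 and -0.12 for all genes. Sdhc and Cox7b stayed at least 2-fold higher in both contrasts under each of 5 other settings: without T-type cell 2, without T-type cells 2 and 3, with the mean CPM, with the median over cells and with TMM factors. Atp5d did so versus S-type and Atp5l versus NR. Of these settings, the last 3 bear on S-type and M-type versus NR. Of the 4 lower genes in S-type versus NR, Uqcrc1 stayed at least 2-fold lower under all 3, and of the 5 in M-type versus NR Atp5g1 did, but Atp5g1 was at -0.90 without NR cell 5. Leaving out NR cell 5 took the count in S-type versus NR from 4 to 1, beside 20.6% of all genes. It took the count in M-type versus NR from 5 to 0, beside 26.5%. The T-type versus NR count of higher genes rose from 13 to 20, beside 29.4%. The S-type versus NR count of 4 lower genes moved in both directions with single cells: it was 11 without NR cell 1, which had the lowest share of reads in these genes, 8 without NR cell 2 or NR cell 3, 9 without S-type cell 1, 7 without S-type cell 3 and 1 without S-type cell 6. The M-type versus NR count of lower genes was 8 without M-type cell 5. With all cells, 22.4% of all genes were lower in S-type versus NR and 28.1% in M-type versus NR. The shares of all genes without these other single cells are not given, so these moves cannot be read as particular to the members.

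**Figure D5:**
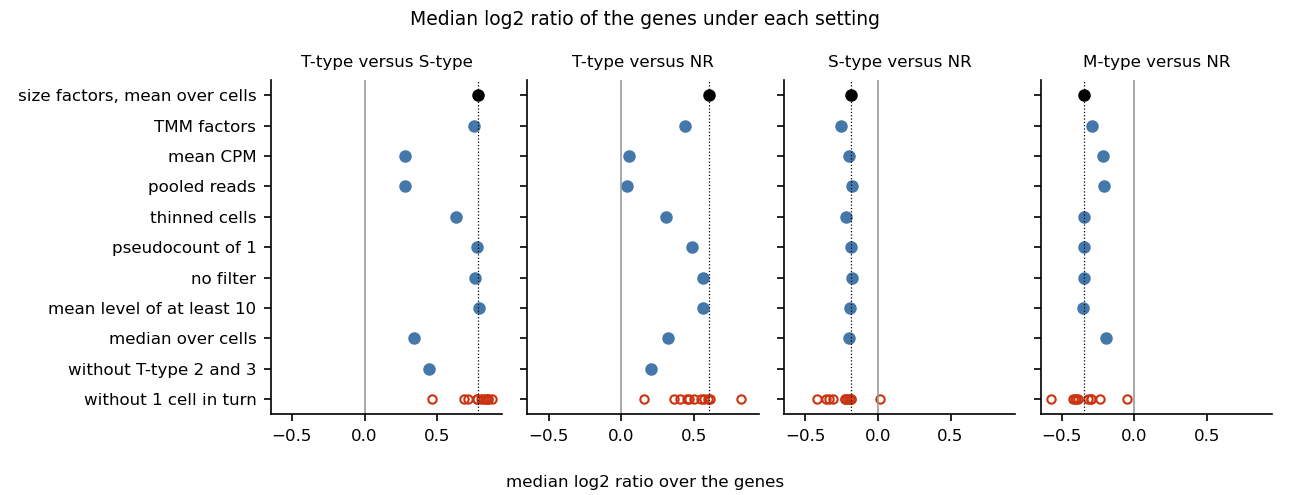
Median log2 ratio over the genes (x axis) under each setting (y axis) in the 4 contrasts, with the reported value in black, other settings in blue and each single cell left out in turn as open red circles. The T-type medians spread from 0.04 to 0.87 and stay above 0, and the S-type versus NR median reaches 0.02 without NR cell 5.

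Complex I subunits and mitochondrial ribosomal proteins were chosen for comparison as gene groups of related function. The 34 complex I subunits that passed the filter had median log2 ratios of 0.59 in T-type versus S-type and 0.18 in T-type versus NR, where the 44 genes of complexes II to V were at 0.78 and 0.60, and -0.52 and -0.20 in S-type and M-type versus NR. At least 2-fold higher in T-type were 9 of 34 complex I subunits versus S-type and 4 of 34 versus NR. These are 26.5% and 11.8%, beside 26.0% and 28.6% of all genes. The medians of complex I without T-type cell 2 were 0.46 and -0.16, beside 0.47 and 0.15 for complexes II to V. The 76 mitochondrial ribosomal proteins were at 0.58, 0.59, 0.09 and -0.10. They had more genes on the lower side, 11 of 76 at least 2-fold lower in T-type versus S-type against 1 of 44. No test of these differences was possible with 1 sample per type.

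A list of genes for assembly and regulation of the complexes, which also holds carriers of ADP and ATP and the complex IV subunit Ndufa4, was less uniform. Of 52 listed, 44 were in the table and 43 passed the filter. Their median log2 ratio was 0.48 in T-type versus S-type, with 14 at least 2-fold higher and 7 lower (32.6% and 16.3%, beside 26.0% and 32.2% of all genes). In T-type versus NR it was 0.31, with 16 higher and 10 lower (37.2% and 23.3%, beside 28.6% and 32.4%). In S-type versus NR 9 were higher and 6 lower (20.9% and 13.95%, beside 25.1% and 22.4%), and in M-type versus NR 6 were higher and 9 lower (13.95% and 20.9%, beside 19.8% and 28.1%). The 3 with the most reads were Slc25a4 and Slc25a5, the carriers that exchange ADP for ATP, and Ndufa4, now counted as a subunit of complex IV. Slc25a4 and Slc25a5 were at log2 ratios of 1.65 and 1.55 in T-type versus S-type, with 52.2% and 67.5% of the T-type sum in cell 2, and at 0.85 and 0.19 without it. Ndufa4 was at 4714 in T-type, 2070 in S-type, 5690 in M-type and 3800 in NR. Bcs1l, Coa4 and Taco1, which the study names from these same cells, were at log2 ratios of -5.25, -9.58 and -6.42 in T-type versus S-type. Their T-type levels were only 3.26, 0.107 and 0.859 normalized counts. They belong to the 7 lower genes, beside 14 higher ones. Cmc1, a factor for the assembly of complex IV, had M-type and NR cells that did not overlap, at a log2 ratio of 2.96 (2.86 to 3.06). M-type cells read 941, 1134, 760, 413 and 1052, and NR cells 52.2, 192, 53.2, 202 and 52.8. Of the 43 genes, Cmc1 alone had cells apart, in 1 of the 4 contrasts. The shares of all genes were 0.771%, 0.991%, 0.409% and 0.598% in the 4 contrasts. Its T-type cells ran from 0 to 4085.

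Across the 22 cells the complexes moved together to unequal degrees. The summed normalized counts of complex IV and the ATP synthase had a Pearson r of 0.98 and a Spearman rho of 0.89, and r was 0.83 without the 2 cells farthest from the median of complex IV. Complex II and the ATP synthase had r of 0.97 and rho of 0.56, and r of 0.56 without the 2 farthest cells. Complex III and complex IV were at r of 0.74 and rho of 0.78, and at 0.49 without 2 cells. Cytochrome c had r of 0.05 to 0.33 to the other complexes, and without the 2 farthest cells its r to complex III was 0.68. Division by a common size factor enters both sums of a cell, and as shares of reads the r of complex IV and the ATP synthase was 0.81 and that of complex II and complex IV 0.48. The cells share chemistry and scaling and may share cultures, so these values describe the 22 cells only.

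Many nuclear respiratory genes are known to be controlled by the factors NRF1, GABP (of the ETS family) and YY1, whose sites lie near the start of transcription. Promoters are shown for the gene of cytochrome c (Cycs) and for a pair of genes that hold both NRF1 and ETS letters (Cox6a1 and Atp5k). They are also shown for the gene lowest per length in complex III (Uqcrc1) and for Cox7b, which had no match. Each line holds 250 bases before to 50 bases after the start in RefSeq on GRCm38.p6, written 5′ to 3′ on the strand of the gene. Capitals mark exact matches on either strand to the letters GCATGCGC (NRF1), CCGGAAG (ETS) or ATGGCGG (YY1).
Cycs (chr6:50566520-50566819, minus strand): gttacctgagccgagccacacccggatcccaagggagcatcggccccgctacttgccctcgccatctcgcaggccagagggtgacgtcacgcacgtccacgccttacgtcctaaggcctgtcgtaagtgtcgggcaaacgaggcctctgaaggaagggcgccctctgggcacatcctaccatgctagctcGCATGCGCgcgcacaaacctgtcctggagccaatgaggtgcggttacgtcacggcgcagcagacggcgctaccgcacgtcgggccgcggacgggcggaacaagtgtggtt
Cox6a1 (chr5:115348909-115349208, minus strand): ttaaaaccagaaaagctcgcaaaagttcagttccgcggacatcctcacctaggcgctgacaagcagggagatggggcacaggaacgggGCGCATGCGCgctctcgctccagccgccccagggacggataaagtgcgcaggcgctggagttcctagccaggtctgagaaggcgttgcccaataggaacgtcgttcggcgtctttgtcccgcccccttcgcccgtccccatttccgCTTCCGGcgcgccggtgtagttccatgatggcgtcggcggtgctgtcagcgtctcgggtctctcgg
Atp5k (chr5:108434350-108434649, minus strand): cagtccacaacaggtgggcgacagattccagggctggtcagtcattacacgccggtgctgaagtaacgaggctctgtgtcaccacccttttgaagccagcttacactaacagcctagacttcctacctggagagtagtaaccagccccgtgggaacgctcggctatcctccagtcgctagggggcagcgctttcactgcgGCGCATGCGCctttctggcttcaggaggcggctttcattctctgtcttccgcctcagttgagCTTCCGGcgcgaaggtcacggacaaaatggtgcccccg
Uqcrc1 (chr9:108936398-108936697, plus strand): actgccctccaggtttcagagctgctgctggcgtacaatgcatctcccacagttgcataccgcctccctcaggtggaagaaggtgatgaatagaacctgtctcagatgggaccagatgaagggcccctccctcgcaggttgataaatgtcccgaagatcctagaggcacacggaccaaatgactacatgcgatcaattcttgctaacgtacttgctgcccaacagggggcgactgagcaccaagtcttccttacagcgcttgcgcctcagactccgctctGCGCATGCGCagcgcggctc
Cox7b (chrX:106015450-106015749, plus strand): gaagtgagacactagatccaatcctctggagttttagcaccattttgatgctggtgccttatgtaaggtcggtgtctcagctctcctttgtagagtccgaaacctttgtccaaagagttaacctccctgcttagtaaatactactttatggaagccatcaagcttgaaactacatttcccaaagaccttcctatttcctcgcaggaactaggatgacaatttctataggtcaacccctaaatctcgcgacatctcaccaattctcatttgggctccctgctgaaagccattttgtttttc

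Of the 49 genes, 38 had a promoter in the reference, with 42 promoters in all. The NRF1 letters occurred in 8 of 42 promoters (19.05%), against 2.71% of all 32851 promoters and 5.11% of the 12936 promoters of genes that passed the filter. The ETS letters were in 12 (28.6%), against 8.86% and 17.0%, and the YY1 letters in 4 (9.52%), against 4.05% and 7.82%. Any of the 3 occurred in 18 promoters (42.9%), against 14.1% and 26.7%. The palindrome GCGCATGCGC seen in Cox6a1, Atp5k and Uqcrc1 holds the NRF1 letters on both strands in overlap and was counted as 1 promoter. The median G+C content was 56.5% in these promoters and 52.7% in all. Of the genes with higher T-type levels, 12 of the 15 genes at least 2-fold higher in T-type versus S-type had a promoter, 5 of them with a motif, and 3 of 10 did in T-type versus NR, where 17 of all 38 genes had one. A match describes these letters only and does not show a bound factor.

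Some counts may hold reads of neighbouring genes or lose reads to copies. In GENCODE vM21, 13 of the 49 genes share exon sequence with another annotated gene. Atp5f1 overlaps Wdr77 by 337 bases, Cox6c overlaps Vps13b by 250, Atp5j overlaps Gabpa by 397 and Atp5a1 overlaps Haus1 by 129, each on the opposite strand. Whether strand was used in counting is not given in the sources used here, so reads of such a pair cannot be told apart. Only uniquely aligned reads were counted, and genes of this group that have near-identical processed copies, such as Cycs, may have lost reads, which makes their levels per length uncertain.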

How the data were processed

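RNA of 22 single astrocytes was amplified as antisense RNA, made into libraries and sequenced. The authors deposited raw counts, 1 per gene symbol and cell, with no normalization. After trimming, they used STAR with GRCm38 for alignment and counted unique exonic alignments with VERSE, a counter derived from HTSeq; versions are not given in the sources used here. The response type in the table matched the label in all 22 cells.

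Each cell's counts were scaled by a size factor, the median of its ratios to the geometric mean of the 3670 genes found in all cells. Where a type had no read of a gene, 3 reads stood in for its level. Only genes read in at least 5 cells were compared, 12719 in all. The 95% intervals of ratios use Clopper-Pearson limits on how a gene's reads divide between types and cover counting error only. The fold threshold was 2. With 1 sample per type, edgeR 4.0.16 (R 4.3.3) served for TMM factors and no count test was run. Tools were Python 3.11.15, NumPy 2.4.6, pandas 2.3.3, SciPy 1.17.1 and matplotlib 3.10.9, and the steps were tested on simulated data. GENCODE vM21 (GRCm38) gave positions and lengths of transcripts, and promoters from RefSeq (GRCm38.p6).

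The genes and lists were chosen with earlier results of these data known. In each complex, the gene with the highest level was named. Per contrast, so was the gene of each complex with the largest absolute log2 ratio at a mean level of at least 10. Also named were the 4 of the 49 genes that the study names, and the isoform families. Of the assembly factors and regulators, the 3 with the most reads and those whose cells did not overlap were named. Other genes with values were named after these were seen. Alternatives were TMM factors, mean CPM, CPM of pooled reads, cells thinned to the smallest library, a pseudocount of 1, no filter, a minimum mean level of 10, and each cell left out in turn. The median over cells, and the T-type without its 2 cells of smallest size factor, were added after seeing the data.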

Additional observations from a re-analysis of the deposited data

Results flagged for a closer look

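Within each response type, the highest and lowest cells were compared with the others by Dixon's test in 96 sets of values, the shares of reads by complex and the normalized counts of 18 named genes, and 17 sets had a cell that stood apart. The genes were named partly for large ratios between types, to which single cells contributed, so the 17 sets cannot be set against a chance rate. The sets are also not independent because they hold the same cells.

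T-type cell 2 (size factor 0.276) gave 7 of the 17. It stood above the other T-type cells in the share of reads in complex II (gap of 0.866 of the range), Atp5a1 (0.966), Sdha (0.895), Uqcrh (0.856), Cox7b (0.739), Cox6a1 (0.716) and Sdhc (0.640). T-type cell 3 stood high in Uqcrc1, at 676 against 343 in the next cell (0.671). NR cell 5 gave 5: Sdhd (0.867), Cycs (0.794), Cyc1 (0.736), Sdha (0.715) and Atp5g1 (0.714). M-type cell 2 stood high in Uqcrb (0.844) and Atp5f1 (0.756). In S-type, cell 3 had the highest share of reads in complex III, at 0.423% against 0.250% (0.703), and cell 2 the highest Uqcrfs1, at 12697 against 6081 (0.632). All of these were high values. The gaps were taken on counts and shares without a logarithm, which are bounded at 0, so a low cell can hardly stand apart. In T-type cell 2, Cyc1 read 21.8, against 1637 to 12054 in the other T-type cells. Sdhd read 39.9 there, against 795 to 6822. Neither was flagged.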

How the results depend on the processing

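Neither cells nor types carry an animal, so the spread between animals is unknown, and thinning all cells to the smallest library moved the T-type medians as given below. No paired analysis was possible because the results come from no test, and the number that ends each cell's title, which some cells of different types share, is not explained in the labels and was not used. The cause of the changes below was not tested.

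With mean CPM, the medians over the genes were 0.28 in T-type versus S-type, 0.056 in T-type versus NR and -0.22 in M-type versus NR. For all genes they were -0.44, -0.45 and -0.10. Genes at least 2-fold higher numbered 6 and 5 in the T-type contrasts, beside 16.7% and 19.3% of all genes. Lower ones numbered 3 in T-type versus S-type, 3 in T-type versus NR, 1 in S-type versus NR and 2 in M-type versus NR. Of all genes, 37.8%, 37.9%, 21.3% and 25.5% were lower in the same order. With pooled reads the medians were 0.27, 0.038 and -0.21, the higher genes 7 and 6, the lower genes 2, 3, 2 and 2, and the shares of reads 3.00% in T-type, 2.55% in NR, 2.26% in S-type and 2.19% in M-type. The medians of all genes were then -0.55, -0.52 and -0.09. Of all genes, 16.4% and 18.6% were higher, and 39.9%, 40.3%, 21.7% and 25.1% lower. With thinned cells the T-type medians were 0.63 and 0.30, lower genes numbered 2 in T-type versus NR and 2 in S-type versus NR, and higher genes 0 in S-type versus NR. With TMM factors the medians were 0.44 in T-type versus NR and -0.29 in M-type versus NR, with 3 lower genes in T-type versus NR and 9 in S-type versus NR. The medians of all genes were -0.13 in both. Of all genes, 33.3% were lower in T-type versus NR and 24.2% in S-type versus NR. Without the filter there were 2 lower genes in each T-type contrast and 2 higher ones in S-type versus NR. At a mean level of at least 10 there were 0 lower genes in T-type versus S-type and 0 higher ones in S-type or M-type versus NR. No share of all genes is given for thinned cells, without the filter or at this level.

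With the median over cells, the medians were 0.34, 0.32 and -0.19 in T-type versus S-type, T-type versus NR and M-type versus NR; higher genes numbered 8, 7, 2 and 2 in the 4 contrasts, and lower ones 0 in T-type versus S-type, 2 in T-type versus NR and 3 in M-type versus NR. Atp5a1 and Sdha reversed in T-type versus NR, to -0.34 and -0.25. Without the 2 T-type cells of smallest size factor, the T-type medians were 0.44 and 0.21, with 3 lower genes versus S-type and 2 versus NR, and complex II (-0.23) and Sdha (-0.64) reversed versus S-type, as did Atp5a1 (-0.45) and Sdha (-1.18) versus NR. All genes were then at medians of -0.25 and -0.24, with 35.8% and 35.9% of them lower. With each cell left out in turn, Atp5a1 and Sdha in T-type versus NR ran from -0.54 to 2.33 and from -0.53 to 1.93, the lowest values without T-type cell 2.

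Leaving out each cell in turn gave medians of 0.47 to 0.87 in T-type versus S-type, 0.15 to 0.82 in T-type versus NR, -0.42 to 0.0176 in S-type versus NR, where leaving out NR cell 5 turned the sign, and -0.57 to -0.048 in M-type versus NR. Higher genes numbered 11 to 18, 10 to 20, 1 to 2 and 1 to 2 in the same order, and lower genes 1 to 2, 0 to 3, 1 to 11 and 0 to 8. Genes whose cells did not overlap numbered 0 to 1 in each contrast. With all cells, 26.0%, 28.6%, 25.1% and 19.8% of all genes were higher, and 32.2%, 32.4%, 22.4% and 28.1% lower. Those whose cells did not overlap were 0.771%, 0.991%, 0.409% and 0.598% of all genes. Median shares of reads were 2.78% to 2.81% in T-type, 2.55% to 3.02% in NR, 1.86% to 2.39% in S-type and 2.05% to 2.25% in M-type.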
